A study of Mus musculus with 5 samples.

Results

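Arginine is the shared substrate of nitric oxide synthase and the arginases, and 6 mouse genes of this metabolism were followed across cell classes and treatments: Nos2, Arg1, Arg2, Ass1, Asl and Slc7a2. They were taken by symbol from the feature lists of 2 single-cell RNA libraries, and all 6 were among the 32245 gene symbols measured. The set was selected on measured values of these libraries, namely the levels and the co-detection of Nos2 and Arg1 in C1q-high and C1q-low myeloid cells. Those values are therefore given as descriptions, and no test rests on them.

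Nos2 encodes the inducible nitric oxide synthase, which turns arginine into nitric oxide and citrulline. Arg1 (cytosolic) and Arg2 (mitochondrial) encode arginases, which split arginine into ornithine and urea. Ass1 and Asl encode the enzymes that rebuild arginine from citrulline, and Slc7a2 encodes CAT2, a cationic amino acid transporter that carries arginine into cells. In macrophages, Nos2 is a classic marker of activation by interferon gamma and microbial products, Arg1 one of activation by interleukins 4 and 13, and myeloid cells of tumours are known to express either gene. On the GRCm38 annotation, Nos2 lies on chromosome 11 (78920787 to 78960254, plus strand), Arg1 on chromosome 10 (24915221 to 24927484, minus strand) and Arg2 on chromosome 12 (79130777 to 79156301, plus strand). Ass1 lies on chromosome 2 (31470207 to 31520672, plus strand), Asl on chromosome 5 (130011258 to 130029247, minus strand) and Slc7a2 on chromosome 8 (40862396 to 40922308, plus strand). Counts are per whole gene, and the files do not separate exons, introns or UTRs.

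The mice were BALB/c, 6 weeks old, and carried subcutaneous tumours of CT26, a transplantable mouse colon carcinoma line from the same strain. The control group received PBS and the other group 100 µg of 9H10, an antibody against CTLA-4, by intraperitoneal injection on days 5, 8 and 11 after inoculation, and tissue was taken on day 13. Both groups thus share the strain, the tumour line, the injection days and the collection day. The labels call the material tissue, without naming the organ or the number of animals pooled, and give 1 RNA library for each group. There is therefore no replicate check for any difference between treatments: no p-value is given, and intervals cover counting error only.

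The control library held 5649 barcodes with a median of 6827 UMIs (unique molecular identifiers, each counting 1 captured transcript), and the anti-CTLA-4 library 4186 barcodes with a median of 3147.5. After filtering, 5242 and 3950 cells remained, and 19 kept barcodes occurred in both libraries. The monocyte/macrophage-like class, called myeloid here, held 927 cells after PBS and 307 after anti-CTLA-4. All 15 of its marker genes were detected in both groups described next, in both libraries. Its 11 subclusters were called C1q-high where at least 50% of cells thinned to 1000 UMIs had a C1qa, C1qb or C1qc UMI, and C1q-low otherwise. Just inside the threshold stood subcluster 3 (60.2%) and just outside it subcluster 2 (47.2%). There were 457 C1q-high cells in the control library and 56 in the other, and 470 and 251 C1q-low cells. Different subclusters made up the groups in the 2 libraries. Subclusters 0, 4 and 5 held most control C1q-low cells, while after treatment subclusters 2, 8 and 5 did. A further cluster of shallow barcodes, cluster 10, was led by Acp5, Ctsk and Mmp12 and stayed unnamed, with medians of 860 and 1107 UMIs. The level of a gene in a class is given as its UMIs per 1000000 UMIs of that class (CPM), with an exact 95% interval where one is printed.

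The cells that held the transcripts differed by gene. Of 2764 Arg1 UMIs in the anti-CTLA-4 library, 2326 lay in C1q-low cells, while of 1145 in the control library 848 lay in C1q-high cells. Nos2 and Slc7a2 were scarce, with 181 and 169 UMIs in kept control cells and 353 and 165 in kept anti-CTLA-4 cells. Ass1 was spread over myeloid, T-like, dendritic-like and Ptprc-negative cells, and Arg2 lay in myeloid and neutrophil-like cells. Of 1711 control Asl UMIs, 1497 lay in the Ptprc-negative cells. This class joins the clusters without another name where under 5% of cells had a UMI of the pan-leukocyte gene Ptprc. Ptprc-negative cells numbered 2923 in the control library and 39 in the other, and held 73019142 of all 82622047 UMIs of kept control cells. Their control Asl level, 20.5 CPM, was thus near the 20.7 of all kept control cells. Their control Ass1 level was 15.3 CPM, against 35.4 in all kept control cells.

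**Figure D1:**
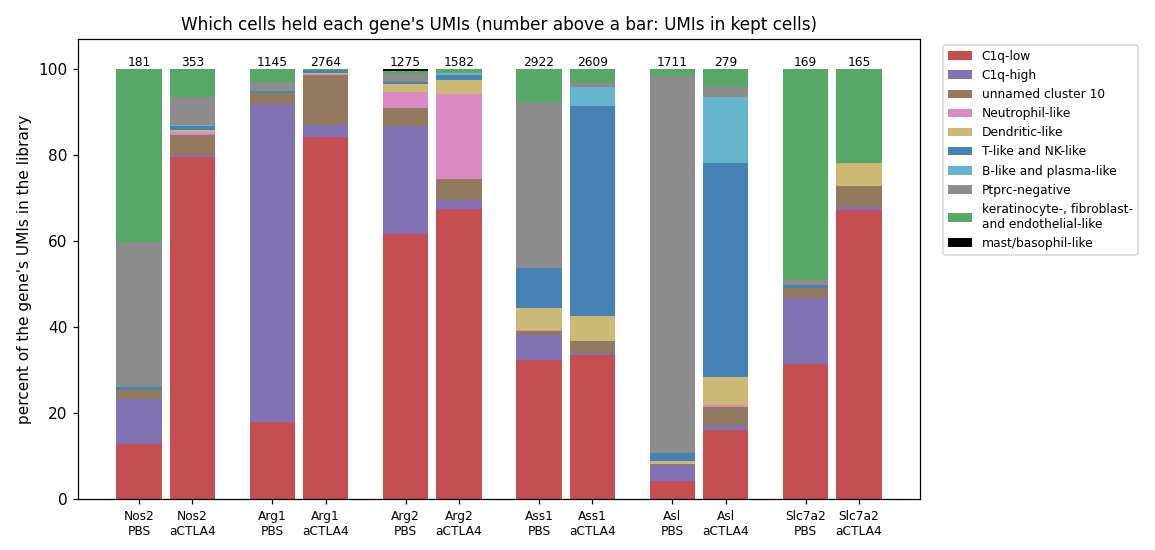
Share of each gene's UMIs (y axis, percent) held by each cell class, for the control (PBS) and anti-CTLA-4 (aCTLA4) libraries. Numbers above the bars are the UMIs in kept cells, and C1q-low cells held 2326 of 2764 Arg1 UMIs in the anti-CTLA-4 library but 204 of 1145 in the control library.

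Nos2, the nitric oxide synthase, was found in few control myeloid cells and, after anti-CTLA-4, in a larger share of the C1q-low cells. In C1q-low cells its level was 10.9 CPM in the control library (23 UMIs) and 152 in the anti-CTLA-4 library (281 UMIs), a ratio of 14.0 (95% interval 9.11 to 22.4). A Nos2 UMI was seen in 2.98% of these 470 cells under PBS, against 19.1% of 251 under treatment, and after thinning every cell to 1000 UMIs in 1.74% of 459 and 8.54% of 246. T-like cells, which are not known as a source of Nos2, had one in 0.251% (PBS) and 0.141% (anti-CTLA-4) of cells, at median depths of 1895 and 3300.5 UMIs against 4203.5 and 6945 in C1q-low cells. In C1q-high cells the counts were 19 control UMIs, of which 14 came from a single cell, and 1 anti-CTLA-4 UMI, so the levels of 8.94 and 4.71 CPM were not distinguishable at this depth (ratio 0.526, 0.0127 to 3.31). The direction depends on how the cells were grouped: the ratio was 7.53 at a Leiden resolution of 0.5 and 4.40 with each cell split by its own C1q UMIs.

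Most of the Nos2 of the anti-CTLA-4 library sat in 1 subcluster. Subcluster 8, led by Nos2, Mmp12 and Arg1, consisted of 56 anti-CTLA-4 cells with 3 from the control, and 238 of the 281 Nos2 UMIs of C1q-low cells were in it. There the level was 683 CPM (599 to 775) and 58.9% of cells had a Nos2 UMI, and the richest cell held 48 UMIs. Of the 6 genes, 3 were at least 1.5-fold higher and 2 at least 1.5-fold lower in this subcluster than in the other C1q-low cells of the same library, beside 18.0% and 22.2% of 6732 genes. Without this subcluster, the ratio between the libraries in C1q-low cells was 2.87 in place of 14.0. Subcluster 2, with 125 anti-CTLA-4 cells, stood at 35.2 CPM and subcluster 5, with 39, at 16.9. Neither was higher than in the control library, where subcluster 2, with 21 cells, stood at 72.1 and subcluster 5, with 87, at 23.7. The ratios were 0.488 (0.213 to 1.31) and 0.713 (0.191 to 2.29), from 7 and 10 control UMIs. The interferon-gene-rich subcluster 0, which held 184 of the control C1q-low cells, had 2 Nos2 UMIs. Nos2, Arg1 and their pathway genes were kept out of the genes used for clustering, but genes that vary with them were not, so the height of subcluster 8 is a description of how those cells were grouped.

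Outside the myeloid cells, Nos2 was carried by small groups of non-immune cells. Endothelial-like cells had 20 UMIs in 7 of 35 control cells (76.2 CPM) and 3 UMIs in 3 of 16 anti-CTLA-4 cells (24.5 CPM). Fibroblast-like cells stood at 42.4 CPM in the control library, from 53 UMIs in 9 of 145 cells, and at 24.2 in the other, from 19 UMIs in 3 of 120 cells. Ptprc-negative cells had 61 UMIs in 30 of 2923 control cells (0.835 CPM) and 23 UMIs in 7 of 39 anti-CTLA-4 cells (34.4 CPM). In NK-like cells no Nos2 UMI was seen in 211 control cells, which allows a share of cells with a detected UMI of up to 1.42%, nor in 101 anti-CTLA-4 cells, which allows up to 2.97%. These limits, as others from a count of 0, bound detection at these depths and not expression. The order of the anti-CTLA-4 levels was C1q-low, Ptprc-negative, cluster 10 (30.6 CPM), endothelial-like and fibroblast-like, and the intervals of the last 4 overlap.

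**Figure D2:**
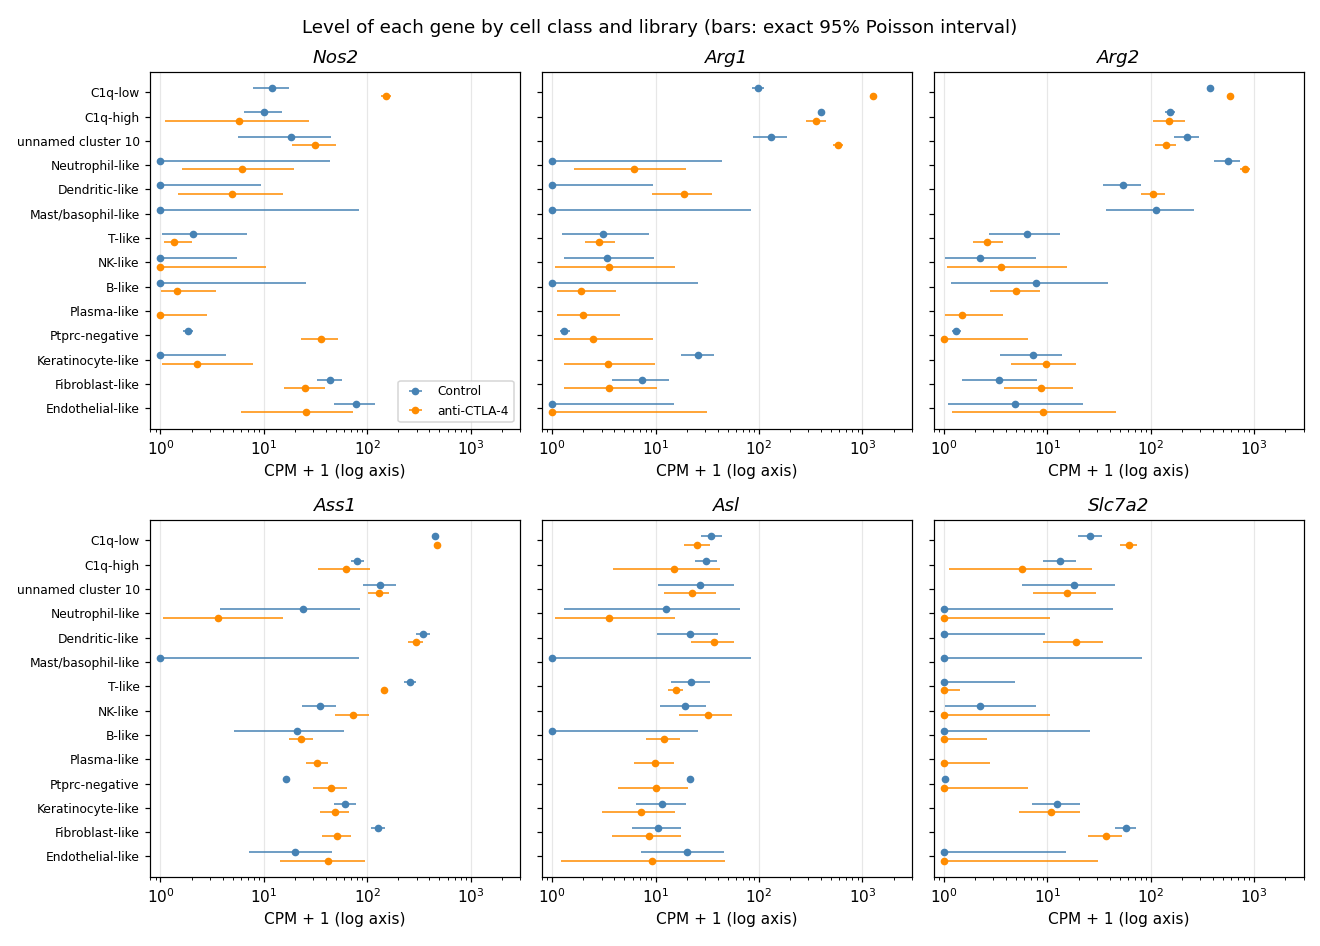
Level of each of the 6 genes (x axis, CPM plus 1, log axis) in each cell class, with 1 point per library and exact 95% Poisson intervals. Arg1 in C1q-low cells stands at 96.6 CPM (control) and 1258 CPM (anti-CTLA-4), while Ass1 in the same cells stands at 447 and 473.

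Arg1, the cytosolic arginase, had its higher level in C1q-high cells of the control library and in C1q-low cells of the anti-CTLA-4 library. In control cells it stood at 399 CPM in C1q-high cells (373 to 427) and at 96.6 in C1q-low cells (83.8 to 111). In the anti-CTLA-4 library it stood at 358 in C1q-high cells (282 to 448) and at 1258 in C1q-low cells. The C1q-low level was thus 0.242 times the C1q-high level in the control library (0.207 to 0.282) and 3.52 times it in the anti-CTLA-4 library (2.80 to 4.48). Between libraries, the ratio in C1q-low cells was 13.0 (11.3 to 15.1), from 204 and 2326 UMIs. The share of C1q-low cells with an Arg1 UMI was 5.53% and 49.4%, and 3.27% and 32.5% after thinning. T-like cells had an Arg1 UMI in 0.501% and 0.703% of cells. The counts in control cells rested partly on few cells, since 32 of the 204 UMIs came from 1 cell, against 125 of 2326 in the anti-CTLA-4 library.

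In C1q-high cells the ratio of the Arg1 levels was 0.896 (0.699 to 1.13), and 26.7% of the 457 PBS cells had a UMI, against 17.9% of the 56 from treated mice. This value depends on how the cells were grouped. No alternative gave a lower ratio. It ranged up to 3.67, at a Leiden resolution of 0.5, where most barcodes of the unnamed cluster 10 lay in C1q-high cells (157 of 183 under PBS, 102 of 147 under treatment). Cluster 10 itself stood at 129 Arg1 CPM in the control library (15 of 183 cells) and 585 in the other (66 of 147 cells), a ratio of 4.54 (3.12 to 6.84). The ratio in C1q-low cells stayed between 6.32 and 13.4 over the alternatives tried.

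Arg1 also varied widely within each group. In control C1q-high cells the order was subcluster 6, which is led by Cd163, Ccl8 and Folr2, at 830 CPM, then subcluster 3, led by Mt2, Mt1 and Gclc, at 458, the cycling subcluster 7 at 207 and subcluster 1 at 146. The intervals of these neighbours did not overlap, except for the last 2 (171 to 249 and 117 to 179), and in subcluster 7 a single cell held 71 of the 113 UMIs. In anti-CTLA-4 C1q-low cells subcluster 8 stood at 4010 with a UMI in 91.1% of its cells, subcluster 2 at 729 with 45.6%, and subcluster 5, led by Slpi, Thbs1 and Vcan, at 91.1 with 10.3%. Subcluster 2 had 21 control cells, of which 2 held all 39 Arg1 UMIs (402 CPM). Arg1 was lower after treatment in the 2 subclusters with at least 30 cells in both libraries, the C1q-low subcluster 5 and the C1q-high subcluster 6. In subcluster 5 the level was 175 in the control and 91.1 in the anti-CTLA-4 library (ratio 0.521, 0.322 to 0.819), and in subcluster 6 it was 830 and 441 (ratio 0.531, 0.408 to 0.683). The other C1q-low subclusters had fewer than 30 cells in a library. Their ratios were 1.82 (1.31 to 2.57) in subcluster 2, 13.1 (6.34 to 26.1) in 4 and 101 (17.9 to 4010) in 10. Subclusters 0, 8 and 9 stood at 1.04, 0.921 and 0, with intervals that include 1. Control C1q-low cells lay mostly in subclusters of low Arg1, such as subcluster 0 at 12.1 CPM. How far the group difference reflects which subclusters a library holds, and how far the level within them, was not tested.

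**Figure D3:**
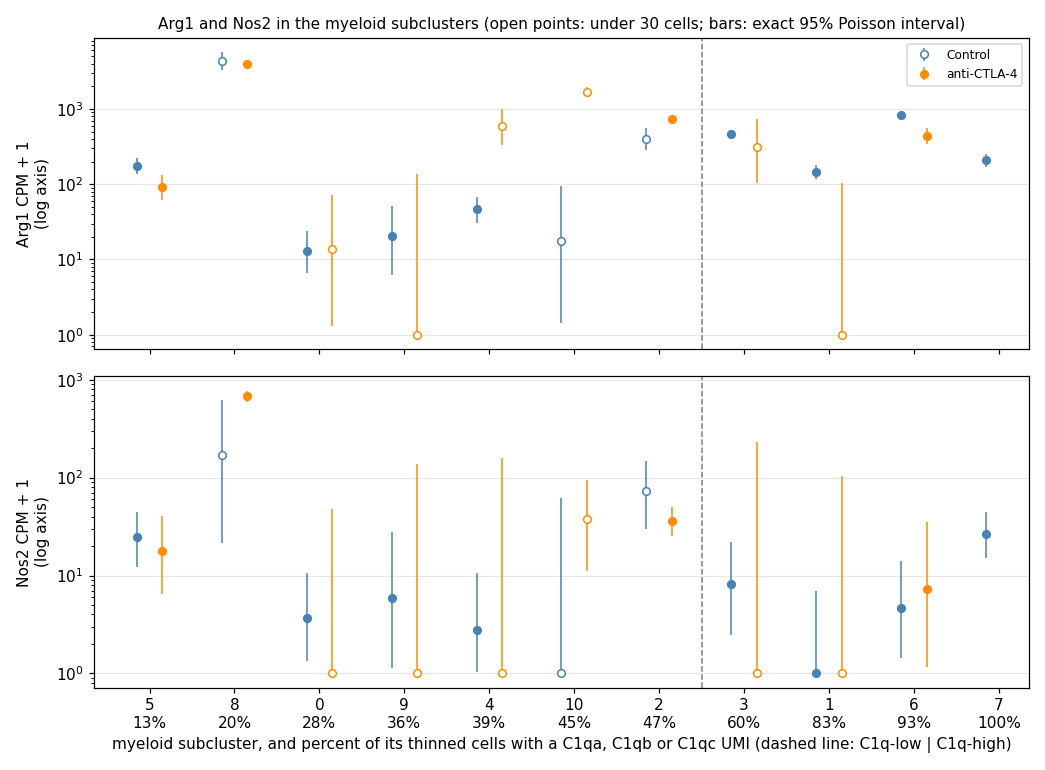
Arg1 (top) and Nos2 (bottom) levels (y axes, CPM plus 1, log axes) in the 11 myeloid subclusters, ordered by the percent of thinned cells with a C1q UMI, with exact 95% Poisson intervals and open points under 30 cells. Subcluster 8 is the highest for both genes in the anti-CTLA-4 library, at 4010 and 683 CPM.

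Other classes held little Arg1. Keratinocyte-like cells had 28 UMIs in 8 of 169 control cells (24.8 CPM) and 2 UMIs in 2 of 100 anti-CTLA-4 cells (2.47 CPM), a ratio of 0.0997 (0.0115 to 0.395). Dendritic-like cells had 9 UMIs in the anti-CTLA-4 library, 8 of them in 1 cell, and none among 66 control cells. Neutrophil-like cells, which carry much Arg2, had no Arg1 UMI in 83 control cells and 2 UMIs in 219 anti-CTLA-4 cells.

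Nos2 and Arg1 use the same substrate and are often described as alternatives, and here they were read in the same cells. Among 251 anti-CTLA-4 C1q-low cells, 41 had UMIs of both genes, 7 of Nos2 only, 83 of Arg1 only and 120 of neither. Arg1 was seen in 85.4% of the 48 cells with Nos2 (72.2 to 93.9, Clopper-Pearson) and in 40.9% of the 203 without it (34.1 to 48.0). Deeper cells show more of every gene, so the counts were repeated at 1000 UMIs per cell. There 15 of 246 cells had both genes (6.10%, 3.45 to 9.86), 6 Nos2 only and 65 Arg1 only, and Arg1 was seen in 71.4% of the 21 cells with Nos2 and 28.9% of the 225 without. The co-detection thus followed the same order at equal depth. Cells with Nos2 alone were too few, at 6 in each library, for a comparison of their other genes with those of Arg1-only cells.

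Most co-detection lay in subcluster 8, where 31 of 56 cells had both genes and 2 had Nos2 only. Within that subcluster, before thinning, Arg1 was seen in 93.9% of the 33 cells with Nos2 and in 87.0% of the 23 without. At 1000 UMIs per cell the order there was reversed, at 72.2% of 18 cells with Nos2 (46.5 to 90.3) and 81.6% of 38 without (65.7 to 92.3). Those intervals overlap. Outside it, before thinning, 10 of 195 anti-CTLA-4 C1q-low cells had both genes and 5 had Nos2 only. Arg1 was seen there in 66.7% of 15 cells with Nos2 and 35.0% of 180 without. At 1000 UMIs per cell, 3 cells there had Nos2, too few to order them. At 2000 UMIs per cell Arg1 was seen in 66.7% of 9 cells with Nos2 (29.9 to 92.5) and 24.3% of 173 without (18.1 to 31.4). The control library offered few such cells. Of 470 control C1q-low cells 2 had both genes, 12 Nos2 only and 24 Arg1 only, and of 457 C1q-high cells 4 had both, 1 Nos2 only and 118 Arg1 only.

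**Figure D4:**
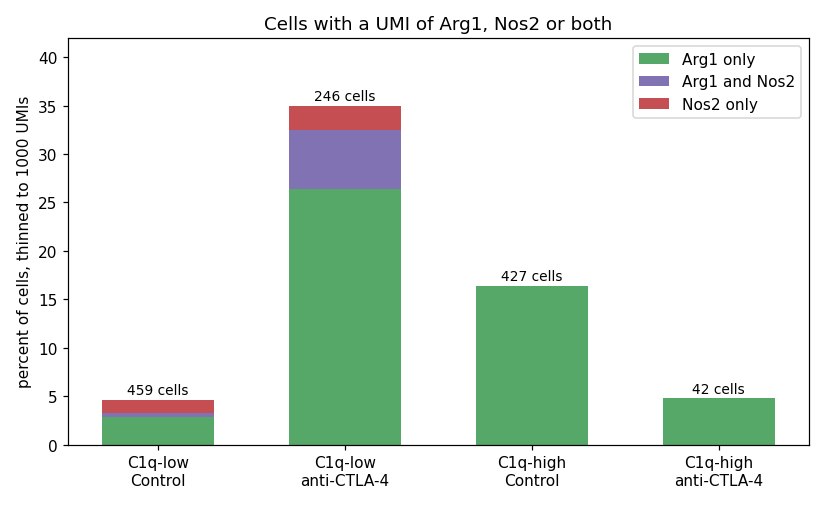
Percent of myeloid cells thinned to 1000 UMIs (y axis) with a UMI of Arg1 only, of Arg1 and Nos2, or of Nos2 only, by C1q group and library, with the number of cells above each bar. In C1q-low cells of the anti-CTLA-4 library 65, 15 and 6 of 246 cells fell in these groups, against 13, 2 and 6 of 459 in the control library.

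Genes that differed between cells with and without an Arg1 UMI were listed at equal depth, a comparison added after the values above were seen. In anti-CTLA-4 C1q-low cells, 80 cells with Arg1 were set against 166 without, and 14.1% of 1789 genes were at least 1.5-fold higher and 19.9% at least 1.5-fold lower. The elastase Mmp12 was 8.42-fold higher (5.78 to 12.6) and the gelatinase Mmp9 6.92-fold (3.20 to 16.6), followed by Tnfrsf9 at 5.47-fold and the chemokines Cxcl1 at 5.71-fold and Cxcl3 at 3.44-fold. The monocyte genes Plac8 and Ly6c1 stood at 0.182 and 0.133 times, and H2-Eb1, a chain of MHC class II, at 0.276 times. Outside subcluster 8 Mmp12 was still 6.84-fold higher (2.92 to 16.9), but Cxcl3 stood at 1.16-fold (0.697 to 1.85), Cxcl1 at 2.14-fold from 3 and 6 UMIs (0.346 to 10.0), and H2-Eb1 at 0.456 times (0.356 to 0.576). In control C1q-high cells, 70 with Arg1 against 357 without, Mmp12 was 4.57-fold higher (2.59 to 8.04), Cxcl3 4.63-fold and the fibronectin gene Fn1 4.48-fold, while Cxcl1 stood at 1.20-fold (0.665 to 2.06). Mmp9 had 23 UMIs in the cells with Arg1 and 3 in the others. The MHC class II genes H2-Eb1, H2-Aa and H2-Ab1 stood at 0.133, 0.182 and 0.212 times, and Cd74, which chaperones class II chains, at 0.384 times. In that comparison, 15.3% of 2778 genes were 1.5-fold or more higher and 21.8% lower.

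Arg2, the mitochondrial arginase, was seen in far more cells than Arg1 and was shared by neutrophil-like and myeloid cells. In C1q-low cells it stood at 372 CPM in the control library (346 to 399) and 577 in the anti-CTLA-4 library (543 to 613), a ratio of 1.55 (1.42 to 1.71). A UMI was seen in 52.8% and 81.7% of cells, and in 22.7% and 41.5% after thinning. The direction was not kept when 500 detected genes were required, where the ratio was 0.985. In C1q-high cells the levels were 152 and 151 CPM, and alternatives ranged from 0.895 to 2.66. Neutrophil-like cells stood at 553 CPM in the control library (408 to 733) and 808 in the other (721 to 903), with a UMI in 37.3% of 83 and 59.4% of 219 cells (ratio 1.46, 1.08 to 2.02). Dendritic-like cells had an Arg2 ratio of 1.99 (1.20 to 3.41), while cluster 10 went the other way, at 223 and 139 CPM (0.621, 0.431 to 0.900). The neutrophil-like median depths were 933 and 1658 UMIs, and among their thinned cells the shares were 43.8% of 32 and 42.9% of 175, so the share was not higher at equal depth. The 8 neutrophil markers summed to 217 CPM in control C1q-low cells, with 2 at 0, and to 461 in anti-CTLA-4 C1q-low cells, with 1 at 0. Their part in the Arg2 level was not tested. Arg2 was seen in 81.3% of anti-CTLA-4 C1q-low cells with Nos2 and 81.8% of those without, before thinning.

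Ass1, which joins citrulline and aspartate in the first step of arginine rebuilding, had about the same level in C1q-low cells of both libraries and was much lower in C1q-high cells. In C1q-low cells it stood at 447 CPM in the control library (419 to 477) and 473 in the anti-CTLA-4 library (442 to 506), a ratio of 1.06 (0.963 to 1.16), with a UMI in 30.5% and 24.8% of thinned cells. In C1q-high cells it stood at 79.6 (68.0 to 92.5) and 61.2 (32.6 to 105). The C1q-low level was 5.62 times the C1q-high level in the control library (4.77 to 6.67) and 7.73 times it in the other (4.50 to 14.6). The subcluster richest in Nos2 was not the richest in Ass1, since subcluster 8 stood at 232 CPM against 529 in the other anti-CTLA-4 C1q-low cells, a ratio of 0.439 (0.345 to 0.552). In the control library, subcluster 6 had 3 Ass1 UMIs in 92 cells (5.48 CPM) beside its 455 Arg1 UMIs. T cell markers summed to 26.0 CPM in control and 78.4 in anti-CTLA-4 C1q-low cells, with 2 and 0 of 10 markers at 0, and their part in the Ass1 level was not tested.

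T-like cells held 244 of the 2922 Ass1 UMIs of the control library, where Ptprc-negative cells held 1118, and 1244 of the 2609 of the anti-CTLA-4 library. Of the UMIs of all genes in kept cells, T-like cells held 942778 of 82622047 and 8623381 of 19222480. T-like cells stood at 259 CPM in the control library (227 to 293) and 144 in the anti-CTLA-4 library (136 to 153), a ratio of 0.557 (0.486 to 0.642). After thinning, an Ass1 UMI was seen in 22.1% of 330 T-like cells from the control, against 10.6% of 2069 from the treated group. Nos2 and Arg1 stood at no more than 2.12 CPM in them, and Arg2 at no more than 5.30. Among T-like cells Ass1 was highest in cluster 14, which is led by Tnfrsf4, Ctla4 and Foxp3, the last being the defining factor of regulatory T cells. That cluster stood at 482 CPM against 177 in the other control T-like cells (ratio 2.72, 2.10 to 3.53), and at 404 against 115 in the anti-CTLA-4 library (3.50, 3.08 to 3.96). It took up 100 of 399 T-like cells under PBS, and 170 of 2134 under treatment. Outside it the level in T-like cells was still lower in the anti-CTLA-4 library (ratio 0.653, 0.540 to 0.795), and within it the ratio was 0.838 (0.680 to 1.04). Dendritic-like cells stood at 345 and 295 CPM, and fibroblast-like cells at 126 and 49.8 (ratio 0.394, 0.270 to 0.562).

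Asl, which splits argininosuccinate into arginine and fumarate, was low in every class. In C1q-low cells it stood at 33.6 CPM in the control library (26.3 to 42.4) and 24.3 in the other (17.7 to 32.6), a ratio of 0.724 (0.487 to 1.07), and in C1q-high cells at 29.7 and 14.1 from 63 and 3 UMIs. Other classes with at least 10 UMIs ranged from 8.79 in plasma-like to 35.6 CPM in dendritic-like cells, both after anti-CTLA-4. Ptprc-negative cells, the deepest of the control library with a median of 24445 UMIs, had an Asl UMI in 34.8% of cells at 20.5 CPM, and in 2.20% after thinning. The control interval of C1q-low cells lay above those of Ptprc-negative (19.5 to 21.6), keratinocyte-like (5.48 to 18.5) and fibroblast-like cells (4.96 to 16.8). After anti-CTLA-4, the interval of dendritic-like cells (21.1 to 56.3) lay above those of B-like (7.13 to 16.3) and plasma-like cells (5.21 to 13.9). Subcluster 8 had 3 Asl UMIs in 56 cells, and of its 33 cells with Nos2, 20 had Ass1 and 2 had Asl.

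Slc7a2, the arginine transporter, lay mostly in C1q-low and fibroblast-like cells. They held 53 and 70 of its 169 UMIs in the control library and 111 and 28 of 165 in the other. In C1q-low cells it stood at 25.1 CPM in the control library (18.8 to 32.8) and 60.0 in the anti-CTLA-4 library (49.4 to 72.3), a ratio of 2.39 (1.71 to 3.38). A UMI was seen in 7.23% and 20.3% of cells, and in 2.18% and 4.47% after thinning. Subcluster 8 stood at 126 CPM against 44.6 in the other anti-CTLA-4 C1q-low cells (2.83, 1.89 to 4.20). Among anti-CTLA-4 C1q-low cells, Slc7a2 was seen in 24 of the 48 with Nos2 and 13.3% of the others. After thinning it was seen in 2 of 21 and 9 of 225 cells, which is too few to order them. At 2000 UMIs per cell it was seen in 10 of 34 with Nos2 (29.4%, 15.1 to 47.5) and 8 of 200 without (4%, 1.74 to 7.73). Those intervals do not overlap. Within subcluster 8 at that depth they did, at 28.0% of 25 cells (12.1 to 49.4) and 11.1% of 27 (2.35 to 29.2). Within subclusters 2 and 5 the level was lower in the anti-CTLA-4 library, with ratios of 0.438 (0.242 to 0.848) and 0.190 (0.0211 to 0.818). The first rests on 14 UMIs in 21 control cells and 61 in 125 anti-CTLA-4 cells, and the second on 15 and 2 UMIs. Fibroblast-like cells stood at 56.0 and 35.7 CPM, keratinocyte-like cells at 11.5 and 9.87 (13 and 8 UMIs) and cluster 10 at 17.2 and 14.4 (4 and 8 UMIs). Dendritic-like cells had 9 UMIs in 3 cells after anti-CTLA-4 and none in the control library. No Slc7a2 UMI was seen in T-like cells (399 under PBS, 2134 under treatment), which allows shares of cells with a detected UMI of up to 0.752% and 0.141%, nor in any B-like, neutrophil-like or endothelial-like cell of either library.

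Counted together, 4 of the 6 genes were at least 1.5-fold higher and 0 at least 1.5-fold lower in C1q-low cells of the anti-CTLA-4 library, with a median log2 ratio of 0.94. Among all 8449 genes with at least 20 UMIs there, 21.8% were that much higher and 17.0% that much lower, with a median of 0.05. In C1q-high cells 0 were higher and 3 lower, from counts of 1 to 3 UMIs in the anti-CTLA-4 library, beside 19.2% and 33.8% of 7582 genes. The non-myeloid classes compared over all genes did not share a direction. In fibroblast-like cells 3 of the 3 genes with enough UMIs were lower, beside 16.8% of 7817 genes (23.1% higher), and in T-like cells 1 of 2, beside 16.3% of 10195 (14.4% higher). In NK-like cells 2 of 2 were higher, beside 23.0% of 6114 genes (16.8% lower), with Ass1 at a ratio of 2.13 (1.22 to 3.74) and Asl at 1.71 (0.730 to 3.91). In neutrophil-like cells Arg2 alone had enough UMIs and did not reach 1.5-fold, beside 31.9% of 2107 genes higher and 26.4% lower. Since the members were chosen with these values known, the counts support nothing.

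The other genes of arginine metabolism were counted in C1q-low cells. Of 42 genes in 6 lists (other synthases, transport, tetrahydrobiopterin, nitric oxide removal, ornithine and polyamines), 29 had enough UMIs, of which 4 were 1.5-fold or more higher in the anti-CTLA-4 library and 6 lower, with a median log2 ratio of -0.17, beside 21.8% and 17.0% of all genes tested and their median of 0.05. Without subcluster 8 the counts were 2 and 6 of 28, beside 20.7% and 17.6% of 8207 genes. Nos1 and Nos3, the other nitric oxide synthases, had too few UMIs. Gch1, the first enzyme of tetrahydrobiopterin, the cofactor of Nos2, stood at 179 and 157 CPM (ratio 0.879, 0.752 to 1.03). Of 5 transport genes 1 was higher and 1 lower. Slc3a2, the heavy chain shared by several amino acid transporters, stood at 403 and 570 (1.41, 1.29 to 1.55), and Slc7a7, a y+L light chain that exchanges arginine, at 71.5 and 26.5 (0.371, 0.263 to 0.515). Among 12 polyamine genes 3 were higher and 2 lower, with spermine synthase Sms at 19.4 and 40.6 (2.09, 1.41 to 3.14) and spermidine synthase Srm at 43.1 CPM in the control and 0.464 times that after treatment (0.308 to 0.687). Of 4 urea cycle, ornithine and creatine genes 1 was lower, the creatine enzyme Gamt, at 27.0 and 8.11 (0.300, 0.158 to 0.538).

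Genes known to act on Nos2 and Arg1 and genes of macrophage states were counted in the same cells, and each count below stands beside 21.8% of all genes higher and 17.0% lower. Of 20 regulators 6 were higher and 3 lower in the anti-CTLA-4 library. Cebpb, a factor that binds the Arg1 gene, stood at 611 and 2295 CPM (ratio 3.75), the shared receptor chain Csf2rb at 468 and 907 (1.94) and the hypoxia factor Hif1a at 237 and 454 (1.91). Of 16 hypoxia and glycolysis genes 7 were higher and 1 lower, with Hk2 at a ratio of 3.22, Vegfa at 2.85 and Gapdh at 2.24, while Aldoa stood at 0.806. Of 15 inflammatory macrophage genes 3 were higher and 8 lower. The interferon-induced chemokines Cxcl9 and Cxcl10 stood at ratios of 0.209 and 0.198 and Il1b at 0.454, while Il1a stood at 6.35. Of 10 alternative activation genes 4 were higher and 3 lower, with Fn1 at 3.27 and Ccl24 at 0.199. Without subcluster 8, the counts were 5 higher and 1 lower of the hypoxia genes and 3 higher and 9 lower of the inflammatory genes, beside the 20.7% and 17.6% given above.

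Likeness of pattern was measured over 24 units of class and library with at least 30 cells, as Pearson's r of log2 levels with 20 CPM added. The units share 2 libraries of unequal depth, so r is a description. The genes most like Arg1 were Pf4 (0.92), Trem2 (0.92), Apoc2 (0.91), Csf1r (0.90) and Ccl9 (0.90), and those most like Nos2 were Acbd3 (0.74), Itpripl2 (0.73), Cgnl1 (0.72), Git1 (0.72) and Rai14 (0.72). Between the members, r was 0.62 for Nos2 and Slc7a2, 0.61 for Arg1 and Arg2, 0.48 for Nos2 and Arg1 and 0.26 for Nos2 and Ass1.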

How the data were processed

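For each gene and barcode the authors deposited raw UMI counts, made with Cell Ranger 5.0.0 on builds mm10 and GRCm38, per the submitters' processing notes. The annotation release is not given in the sources used here. Genes that share a symbol were summed. The 3 receptor libraries were not used here. The members, gene lists and rules were chosen with earlier results of these data known.

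A barcode needed 200 detected genes or more, and no more than 15% of its UMIs from mitochondrial genes. Scrublet marked 0 control and 1 anti-CTLA-4 barcodes, so the highest scores at the expected rates were removed (240 at 4.39% and 133 at 3.27%). Both libraries were clustered together in scanpy 1.11.5 with 2000 variable genes (members and their pathway genes left out), 30 components, 15 neighbours and Leiden resolution 1.0. A cluster was named, with "-like", where at least 3 markers were detected in 20% of its cells and their mean log2 fold was at least 1.0. It stayed unnamed where genes of another class led it, or where its depth was under 1 in 3 of its library's median with no own marker among its top 10 genes. The myeloid cells went through the same clustering a second time. A level is a gene's UMIs per 1000000 UMIs of the class (CPM), with an exact Poisson interval, and a ratio of 2 levels has an exact conditional binomial interval (95%), which was tested on simulated data. The simulated counts were independent Poisson sums, as the interval assumes, so the clumping of UMIs in single cells was not covered. Shares have Clopper-Pearson intervals, and a count of 0 was bounded by 3 counts. PCR duplicates are collapsed by UMIs, so intervals cover counting error of molecules, not animals. In a class sum, fewer cells with a gene and less RNA per cell cannot be told apart, and shares of cells are given for that reason.

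Every list gives the number of members with at least 20 UMIs past 1.5-fold, and names the 3 with most UMIs and the 3 farthest from a ratio of 1 by their interval, of which the text gives a selection. For likeness the 5 highest genes with at least 200 UMIs were named. Alternatives covered filters, doublets, clustering, the C1q split, free RNA and thinning.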

Additional observations from a re-analysis of the deposited data

Results flagged for a closer look

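For 4 of the genes, the ratio of the anti-CTLA-4 to the control level lay above 1 in one class and below 1 in another, with neither interval reaching 1. These differences between classes were not tested, and each class is 1 library per treatment. Nos2 had a ratio of 41.2 in Ptprc-negative cells, from 61 UMIs in 2923 control and 23 UMIs in 39 anti-CTLA-4 cells. Of those 23 UMIs, 82.6% came from the 3 richest cells, and the richest held 8. In fibroblast-like cells the Nos2 ratio was 0.572, where 1 cell gave 15 of the 53 UMIs under PBS and 1 cell 15 of the 19 under treatment. Arg1 had a ratio of 13.0 in C1q-low cells and of 0.0997 in keratinocyte-like cells, where 28 and 2 UMIs were counted. Arg2 had a ratio of 1.55 in C1q-low cells and of 0.621 (0.431 to 0.900) in the unnamed cluster 10, from 52 UMIs in 183 control and 77 UMIs in 147 anti-CTLA-4 barcodes. Ass1 had a ratio of 2.84 in Ptprc-negative cells, from 1118 and 29 UMIs, and of 0.394 in fibroblast-like cells, from 158 and 39 UMIs. The Ptprc-negative clusters differed in size between libraries, with 1017 and 5 cells in the largest.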

How the results depend on the processing

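Of 146 values under alternative settings, 100 lay within the counting interval of the value reported. These include C1q-high values without subcluster 8 and without subclusters 9 and 10, which could not move because these subclusters are C1q-low. The 100 therefore overstates how far the settings agree. The ratios of the anti-CTLA-4 to the control level that lay outside the interval are given here by setting, first for C1q-low cells. The cause was not tested. With 500 detected genes required, Nos2 stood at 7.98, Arg1 at 9.47 and Arg2, now below 1, at 0.985, and in C1q-high cells Arg1 stood at 1.44 and Arg2 at 2.66. With at most 10% mitochondrial UMIs, Arg1 stood at 8.58, Arg2 at 1.19 and Ass1 at 0.869, and in C1q-high cells Arg1 at 1.51, Arg2 at 1.72 and Ass1 at 1.65. With doublets kept, Arg2 stood at 1.28 and Ass1 at 0.926, and in C1q-high cells Arg1 at 1.46, Arg2 at 1.71 and Ass1 at 1.71. At resolution 0.5, Nos2 stood at 8.44, Arg2 at 1.01, Ass1 at 0.792 and Slc7a2 at 1.61, and in C1q-high cells Nos2 at 7.53, Arg1 at 3.67, Arg2 at 1.81 and Ass1 at 1.53. At resolution 2.0, Arg2 in C1q-high cells stood at 1.69. With the members allowed among the clustering genes, Arg2 stood at 1.33, and at 2.01 in C1q-high cells. With each cell split by its own C1q UMIs (2 or more after thinning), Arg1 stood at 7.49 and Ass1 at 1.27, and in C1q-high cells Nos2 at 4.40, Arg1 at 2.00, Arg2 at 1.97 and Slc7a2 at 2.68. The next settings were added after seeing the data. Without subcluster 8, Nos2 stood at 2.87, Arg1 at 8.49 and Ass1 at 1.18. Without subclusters 9 and 10, whose leading genes include dendritic and T cell genes, Arg2 stood at 1.77. With cluster 10 added, Arg1 stood at 11.0, Arg2 at 1.33 and Ass1 at 0.946, and in C1q-high cells Arg1 at 1.40. With the first-level clusters 7 and 5 in place of the C1q groups, Arg1 stood at 6.32 and Arg2 at 1.15, and in C1q-high cells Arg1 at 1.69. Nos2 and Arg1 in C1q-low cells stayed above 1 in all of these. The share of anti-CTLA-4 C1q-low cells with both genes was 6.10% at 1000 UMIs per cell, 12.4% at 2000 and 16.3% without thinning. In every reclustering most kept barcodes of cluster 10 joined the myeloid class, between 105 and 183 of the control and 74 and 147 of the anti-CTLA-4 barcodes. Free RNA, read from 50 genes that lead the Ptprc-negative cells, stood at 6.46% of its level there in control and 1.30% in anti-CTLA-4 C1q-low cells. Subtracting it left Nos2 at 14.0 and Arg1 at 13.0. The profile subtracted was that of control Ptprc-negative cells, with Nos2 at 0.835 and Arg1 at 0.315 CPM, so it could hardly move these ratios. Free RNA from the myeloid cells was not tested. No paired analysis was possible because each group has 1 library. C1q-high cells of the anti-CTLA-4 library number 56, which limits every ratio in them.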

Other observations

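Interleukins 4 and 13 and interferon gamma are textbook inducers of Arg1 and Nos2, and their transcripts were counted by class. Il13 had 921 UMIs in 0.937% of the 2134 anti-CTLA-4 T-like cells and Il4 240 UMIs in 0.515%. The 399 control T-like cells had 1 Il13 and 0 Il4 UMIs, while 28 mast/basophil-like cells of that library held 288 Il4 and 159 Il13 UMIs. Ifng stood at 175 CPM in control and 116 in anti-CTLA-4 NK-like cells, and at 15.9 and 48.2 in T-like cells.

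Alternative activation genes were also counted in C1q-high cells, where 7 of 12 with enough UMIs were at least 1.5-fold higher in the anti-CTLA-4 library and 2 lower, beside 19.2% and 33.8% of all genes tested. Retnla stood at 14.1 and 2160 CPM, from 30 and 459 UMIs, and the resident macrophage genes Folr2 and Lyve1 at ratios of 3.36 (2.83 to 3.97) and 4.73 (1.89 to 11.0). Mrc1 stood at 802 and 823 CPM. Subcluster 6, which is led by Cd163, Ccl8 and Folr2, made up 20.1% of control and 58.9% of anti-CTLA-4 C1q-high cells, and its part in these ratios was not tested.

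Subcluster 8 of the anti-CTLA-4 library was set beside the other C1q-low cells of the same library, as a description of cells that were grouped by their genes. Of 16 hypoxia and glycolysis genes 10 were at least 1.5-fold higher and 0 lower, and of 10 alternative activation genes 1 was higher and 7 lower, beside 18.0% and 22.2% of 6732 genes. Tnf stood at 8.33-fold (5.31 to 13.3) and Il1a at 9.38-fold, while Il1b stood at 0.181 times, Ifngr1 at 0.292 and Il4ra at 0.307.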
